A study of Canis lupus familiaris with 186 samples.

Results

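The genes described here encode enzymes that add methyl groups to histone proteins, remove those groups, or remove acetyl groups from them. They were taken by name as the KDM, KMT2, KMT5, HDAC, SETD, SETDB, EZH, NSD, EHMT, SUV39H, SMYD and PRMT families of the deposited count table, and 66 of its 37952 genes were members. A further 2 names that fit the family pattern were left out by the rule. Their RNA was measured in primary osteosarcomas of 186 pet dogs, 93 enrolled in the trial COTC021 and 93 in the trial COTC022, with 1 tumor library from each dog. The sample labels give the trial and the tissue, and no age, breed, sex or treatment of a dog was used here. No dog without a tumor was among the samples, so the values compare tumors with one another.

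Histone methylation is written by enzymes with a SET domain on lysines and by PRMT proteins on arginines, and it is erased by LSD1-type (KDM1) and Jumonji-type (the other KDM) demethylases. Methylation of lysine 4 of histone H3 (H3K4) by KMT2 and SETD1 enzymes marks promoters and enhancers in use, whereas H3K9 methylation by SUV39H, SETDB and EHMT enzymes and H3K27 methylation by EZH1 and EZH2 go with silenced chromatin. Of the histone deacetylases (HDACs) of class I, HDAC1, HDAC2 and HDAC3 work inside large repressor complexes. The deacetylases of class IIa are shuttling proteins known for their part in muscle and bone differentiation, where HDAC4 and HDAC5 restrain MEF2 and RUNX2.

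Libraries held 6587634 to 27420867 counts (median 10797171). In 50 of them (18 of COTC021, 32 of COTC022) the column name carries a doubled _ sign, and these were deeper, with a median of 19440456 counts against 9851682 in the other 136. They are called the deeper libraries below and are set apart by that name alone. The summed level of 12 osteoblast genes had a median of 55836 CPM in COTC021 and 58070 CPM in COTC022. Of the 12, 5 were listed at 0 in at least 1 library. Over all dogs the largest medians in the list were those of COL1A2 (23695 CPM), COL1A1 (20451 CPM) and SPARC (9547 CPM). Those of its other genes ran from 0.493 CPM for MEPE to 722 CPM for IBSP. Of the 66 members, 64 passed the low-count filter that kept 13422 genes, and SMYD1 and PRMT8 did not. The loci of 15 members overlap another coding gene, HDAC3, KMT2E, NSD3, SETDB2 and SUV39H2 among them, and whether reads were counted by strand is not given in the sources used here. CPM, a count scaled to a common library total, is a share of reads and is not corrected for gene length, so it is compared between dogs and not between genes.

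Nearly the whole family was read in every tumor. Among the members kept, the largest shares of reads belonged to the class I deacetylase HDAC2, with a median of 167 CPM, the main arginine methyltransferase PRMT1 (152 CPM), HDAC5 (139.6 CPM), the lysine methyltransferase SETD7 (130.5 CPM) and the H3K9 and H3K36 demethylase KDM4A (127 CPM). The smallest belonged to KDM8 (3.32 CPM), the H4K20 methyltransferase KMT5C (4.04 CPM), SETD9 (4.76 CPM), HDAC11, the single class IV deacetylase (6.27 CPM), and SETD4 (6.67 CPM). Read as medians of single genes, the 10 kept genes grouped as H3K4 writers, KMT2E among them, spanned together with SMYD1 0.0466 to 130.5 CPM. The 6 H3K9 writers spanned 16.5 to 67.0 CPM and the 3 H3K36 writers 62.0 to 119 CPM. The 15 demethylases spanned 3.32 to 127 CPM and the 4 class I deacetylases 12.6 to 167 CPM. The H3K27 writers EZH1 and EZH2 had medians of 16.1 and 14.5 CPM.

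**Figure D1:**
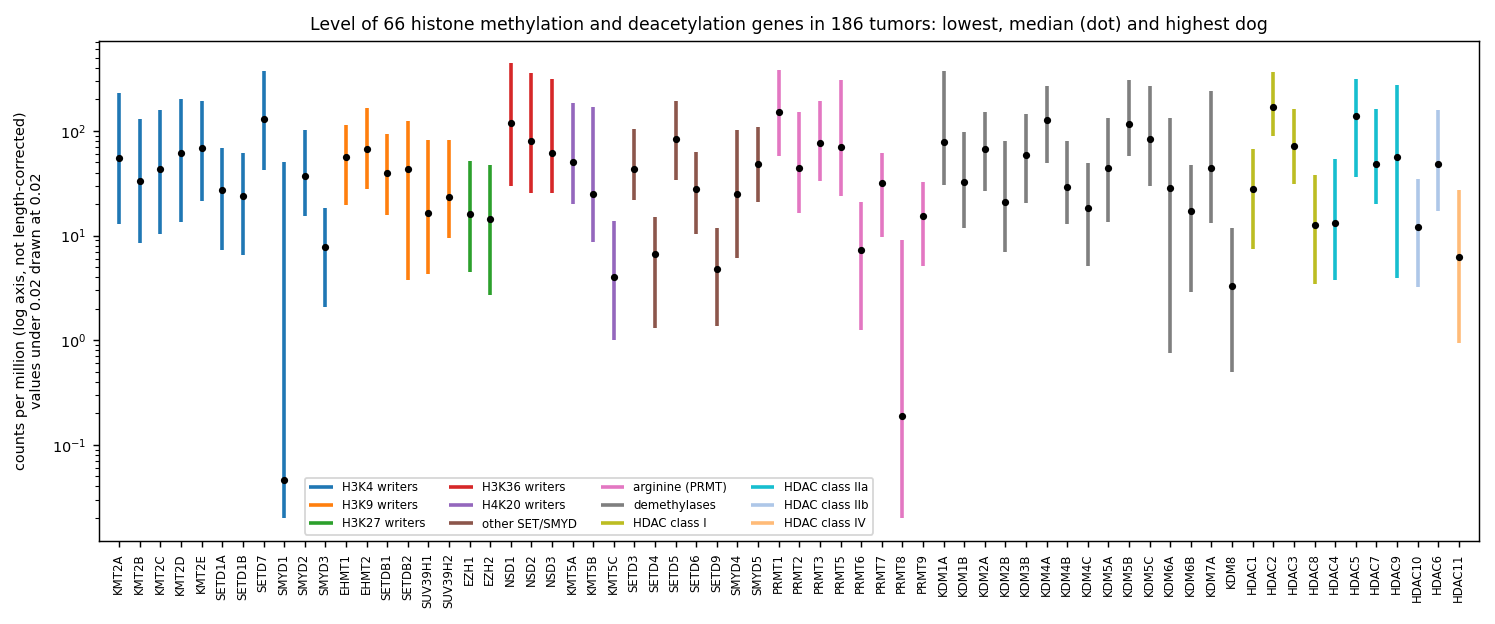
Level of each of the 66 members in CPM on a log axis, with a line from the lowest to the highest of 186 dogs and a dot at the median, coloured by role. The medians run from 0.0466 CPM for SMYD1 to 167 CPM for HDAC2, and the lines of KDM6A, HDAC9 and SETDB2 reach far below their dots. The lowest level of SMYD1 and of PRMT8 was 0 CPM, which a log axis cannot show.

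The median member varied less between tumors than the median gene. The SD of log2 CPM over the 186 dogs had a median of 0.51 over the 64 members, against 0.62 over all 13422 genes. The class IIa deacetylase HDAC9 varied most, with an SD of 1.06 and a 10.7-fold distance between the dogs at the 5th and 95th percentiles. Its lowest, median and highest levels were 3.94, 64.0 and 277 CPM in COTC021 and 8.35, 53.6 and 243 CPM in COTC022. The ranges of the trials overlapped over most of their length, and 7 dogs lay more than 2 log2 units below the median of all dogs, 5 of COTC021 and 2 of COTC022. After HDAC9 came HDAC11 (SD 0.83), the H3K27 demethylase KDM6A (0.76), SUV39H1 (0.70) and HDAC4 (0.70). The steadiest members were EHMT1, partner of EHMT2 in H3K9 methylation (0.35), HDAC3 (0.36), SETD3, better known as an actin methyltransferase (0.37), KDM4A (0.37) and PRMT7 (0.38).

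No member passed the test between the trials. With limma on voom-weighted counts, the coefficients of COTC022 minus COTC021 lay between -0.19 for SETD7 and 0.25 for HDAC11 and KDM8 on the log2 scale, and 0 of 64 members had an adjusted p under 0.05, against 0.0149% of all 13422 genes (2 genes). At an unadjusted p under 0.05 there were 5 members, and edgeR's quasi-likelihood fit and DESeq2 also called 0 members while calling 129 and 91 genes. HDAC11 had lowest, median and highest levels of 0.937, 6.01 and 25.6 CPM in COTC021 and 1.99, 6.52 and 27.2 CPM in COTC022, so the ranges overlapped almost entirely. The smallest adjusted p of any member was 0.318, for KDM8.

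To ask how the enzymes varied with cell division, a proliferation score was computed for each dog as the mean z-score of 28 genes of DNA replication and mitosis, none of them a member. The slope of log2 expression on the score was then fitted per 1 SD of the score with the trial as covariate. Of the 64 members, 37 had an adjusted p under 0.05, 20 rising and 17 falling with the score. The share over all genes tested was 55%, with 24.6% rising and 30.3% falling, so the share of members called, 57.8%, was near the background. The median slope was 0.00 over members and -0.02 over all genes. In bulk tumor RNA, fewer cells of a type and less RNA per cell cannot be told apart, and this holds for every slope below.

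The H3K9 methyltransferase SUV39H1, an enzyme of constitutive heterochromatin, rose most. Its lowest, median and highest levels were 4.25, 16.6 and 53.3 CPM in COTC021 and 4.35, 16.3 and 82.2 CPM in COTC022, and the trials overlapped. The slope was 0.53 ± 0.04 (SE), or 1.44-fold per SD of the score (limma, adjusted p = 8.54e-29). Over dogs, Pearson's r was 0.72 and Spearman's rho 0.75 (permutation test, two-sided, p = 1e-05 for both, the smallest that 100000 resamples can give, and 8.8e-05 adjusted over the 264 relations of members with scores). The r was 0.80 for dogs of COTC021 and 0.66 for those of COTC022, 0.85 over the 50 deeper libraries, 0.69 in the other 136, and 0.75 without the 2 dogs farthest from the median score. Its relative SUV39H2 had a slope of 0.15 ± 0.04 (SE) (adjusted p = 0.000243).

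EZH2 and EZH1, the alternative catalytic subunits of Polycomb repressive complex 2 (PRC2), moved in opposite directions. EZH2, known as a gene of dividing cells, had lowest, median and highest levels of 2.73, 14.5 and 46.7 CPM in COTC021 and 4.51, 14.4 and 38.0 CPM in COTC022. For EZH1, known from resting tissue, the levels were 4.47, 16.7 and 51.8 CPM in COTC021 and 4.45, 15.0 and 49.5 CPM in COTC022. For both genes the trials overlapped over nearly the whole range. The slope of EZH2 was 0.35 ± 0.04 (SE) (limma, adjusted p = 1.97e-13) and that of EZH1 was -0.41 ± 0.04 (SE) (adjusted p = 1.23e-19), the steepest fall of any member. Pearson's r with the score was 0.55 for EZH2 and -0.61 for EZH1, with Spearman's rho of 0.55 and -0.57 (permutation test, adjusted p = 8.8e-05 for all), and without the 2 dogs farthest from the median score r was 0.54 and -0.58. Within COTC021 and COTC022, r was 0.63 and 0.49 for EZH2 and -0.55 and -0.66 for EZH1, and within the deeper and the other libraries it was 0.48 and 0.58 and then -0.62 and -0.63. EZH2 lies on chromosome 16 (1581164 to 1646809) and EZH1 on chromosome 9 (20136953 to 20167063) of the build UU_Cfam_GSD_1.0.

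Among the other enzymes that rose were the H3K36 methyltransferase NSD2, with a slope of 0.45 ± 0.03 (SE) (limma, adjusted p = 2.64e-29), and the arginine methyltransferases PRMT5 and PRMT1, which place symmetric and asymmetric dimethylation. NSD2 had lowest, median and highest levels of 25.5, 83.5 and 361 CPM in COTC021 and 26.4, 75.5 and 259 CPM in COTC022, with the trials again overlapping. PRMT5 rose by 0.39 ± 0.03 (SE) per SD (adjusted p = 5.42e-23), from levels of 24.0, 73.8 and 309 CPM in COTC021 and 25.8, 69.4 and 188 CPM in COTC022. The slope of PRMT1 was 0.28 ± 0.03 (SE) (adjusted p = 2.84e-16). The H3K4 demethylase KDM1A (LSD1) followed with 0.21 ± 0.03 (SE) (adjusted p = 9.42e-08), a call that was lost within the 50 deeper libraries. Of the 3 class I deacetylases of the SIN3, NuRD and NCoR complexes, HDAC2 (0.18, adjusted p = 3.39e-09) and HDAC3 (0.10, adjusted p = 0.000284) rose, and HDAC1 had a slope of -0.05 (adjusted p = 0.204).

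Among the 17 members that fell, the steepest after EZH1 was HDAC11, with a slope of -0.34 ± 0.05 (SE) (limma, adjusted p = 3.09e-08), and the demethylase KDM7A with -0.29 ± 0.04 (SE) (adjusted p = 4.99e-11). KMT2C, an enhancer H3K4 methyltransferase, fell by 0.27 ± 0.05 (SE) (adjusted p = 5.9e-08), from levels of 17.7, 43.6 and 116 CPM in COTC021 and 10.2, 43.8 and 157 CPM in COTC022. HDAC4 had a slope of -0.27 ± 0.05 (SE) (adjusted p = 1.91e-07) and KMT2E, a KMT2 relative known for binding chromatin rather than for methylating it, -0.25 ± 0.03 (SE) (adjusted p = 4.77e-11). Over the 12 alternatives, the slopes of these 6 falling members stayed below 0 and past the threshold, with EZH1 from -0.43 to -0.38 and HDAC4 from -0.49 to -0.19. By role, 4 of 6 H3K9 writers rose and 1 fell, and 3 of 7 arginine methyltransferases and 3 of 4 class I deacetylases rose. Of 10 genes grouped as H3K4 writers 2 rose and 4 fell, with KMT2E among the 4. Of 15 demethylases 2 rose and 5 fell. These are small groups beside the 24.6% of all genes that rose and the 30.3% that fell, and no test was made of a role. Over dogs the proliferation score had r of -0.35, -0.34 and -0.33 with the scores of endothelial, adipocyte and macrophage markers. By rank these were -0.40, -0.20 and -0.33. The adipocyte score held the 3 of its 7 genes that passed the filter. The part of these cells in the falling genes was not tested.

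**Figure D2:**
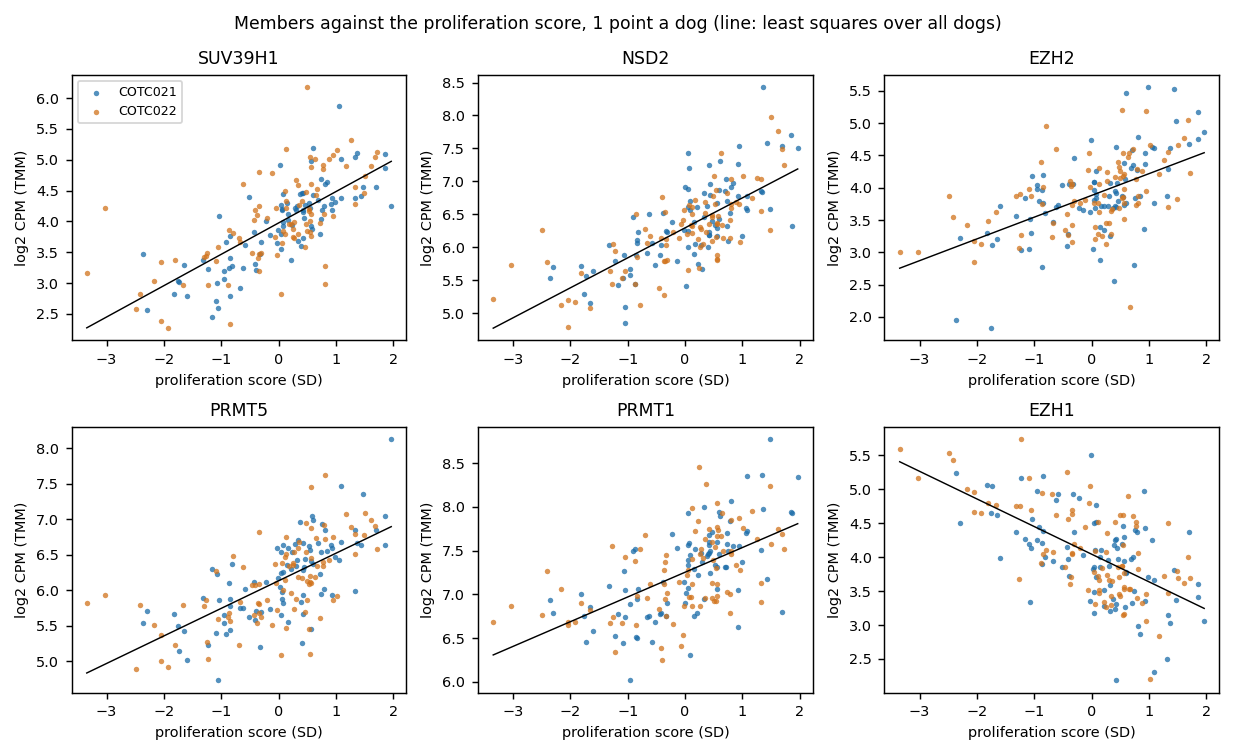
TMM-normalized log2 CPM of 6 members against the proliferation score in SD, with 1 point for each of 186 dogs, coloured by trial, and a least-squares line. SUV39H1 (r = 0.72), NSD2, EZH2 (r = 0.55), PRMT5 and PRMT1 climb from left to right in both trials and EZH1 (r = -0.61) descends.

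GS-1 is a gene signature that the study used to cluster tumors, and 27 of its genes, many of them of immune cells, were entered here as a continuous score. Over dogs it had r of 0.87 and 0.88 (rho of 0.80 and 0.93) with the scores of leukocyte and macrophage markers. The leukocyte score held the 8 of its 14 genes that passed the filter. The part of those cells in the slopes was not tested. The 10 macrophage genes summed to 114 to 3775 CPM in COTC021 and 113 to 6965 CPM in COTC022, and none was listed at 0 in any library, while the 14 leukocyte genes summed to 34.7 to 1981 and 25.3 to 5753 CPM, with 7 of them at 0 in at least 1 library. Of the 64 members, 33 were called, 13 rising and 20 falling, against 48.5% of all genes (22.3% rising and 26.2% falling). The median slope was -0.04 over members and -0.02 over all genes.

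The class IIa deacetylase HDAC5 fell most with the GS-1 score. Its lowest, median and highest levels were 47.6, 142 and 315 CPM in COTC021 and 36.5, 137 and 279 CPM in COTC022, and its slope was -0.28 ± 0.03 (SE) (limma, adjusted p = 4.05e-13), with a range of -0.30 to -0.16 over the 12 alternatives, in each of which it was called. Next came HDAC9 with -0.26 ± 0.08 (SE) (adjusted p = 0.00315), SUV39H1 with -0.24 ± 0.05 (SE) (adjusted p = 3.48e-05), PRMT5 with -0.22 ± 0.04 (SE) (adjusted p = 7.26e-07), KDM1A with -0.16 ± 0.04 (SE) (adjusted p = 0.000101) and SUV39H2 with -0.15 ± 0.04 (SE) (adjusted p = 0.000238). The GS-1 score was negatively related to the proliferation score (r = -0.31, rho = -0.33, permutation test, p = 3e-05 and 1e-05) and to the osteoblast score (r = -0.47, rho = -0.32, p = 1e-05 and 2e-05). With all 4 scores in 1 model the calls of HDAC9, SUV39H1, KDM1A and SUV39H2 were lost, with the slope of SUV39H1 at -0.03, and those of HDAC5 and PRMT5 were not. The calls of HDAC9, SUV39H1 and KDM1A were also lost within COTC021, and that of HDAC9 within the 136 other libraries. The slope of HDAC9 ranged from -0.42 to -0.09 over the 12 alternatives, and over dogs it had r of -0.24 and rho of -0.13 (permutation test, adjusted p = 0.00462 and 0.15) with the GS-1 score, so its fall did not pass the test by rank. Its r was -0.22 and -0.28 within the trials, -0.41 and -0.17 within the deeper and the other libraries and -0.17 without the 2 farthest dogs.

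The H3K9 methyltransferase SETDB2 rose most with the GS-1 score. Its lowest, median and highest levels were 3.77, 43.2 and 118 CPM in COTC021 and 15.2, 42.7 and 125 CPM in COTC022, the lowest of COTC021 standing alone. The slope was 0.23 ± 0.03 (SE) (limma, adjusted p = 2.85e-10), or 1.18-fold per SD, with a range of 0.19 to 0.27 over the 12 alternatives. EZH1 followed with 0.19 ± 0.05 (SE) (adjusted p = 0.000248), then the H3K9 demethylase KDM3B with 0.19 ± 0.03 (SE) (adjusted p = 2.81e-08), KMT2E with 0.19 ± 0.04 (SE) (adjusted p = 4.01e-06), the H3K4 demethylase KDM1B with 0.18 ± 0.04 (SE) (adjusted p = 1.25e-05) and KDM7A with 0.18 ± 0.04 (SE) (adjusted p = 0.000188). SETDB2 and KDM3B were called in all 12 alternatives. The call of EZH1 was lost within COTC021, within the 136 other libraries and with all 4 scores in 1 model, those of KMT2E, KDM1B and KDM7A in 1 setting each. EZH2 had a slope of -0.07 ± 0.05 (SE) (adjusted p = 0.195). HDAC1 rose (0.15, limma, adjusted p = 0.000136), and HDAC3 had a slope of -0.04 (adjusted p = 0.214). HDAC2 had a slope of -0.07 (adjusted p = 0.0413). Its r of -0.16 and rho of -0.16 with the score did not pass the permutation test (adjusted p = 0.0679 and 0.0628).

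Against the score of 11 osteoblast genes, 21 of the 64 members were called, 12 rising and 9 falling, with 37.4% of all genes called (18.1% rising and 19.3% falling). The median slope was 0.02 over members and -0.00 over all genes. Over dogs the score had r of 0.34 (rho = 0.30) with osteoclast markers. With leukocyte markers r was -0.41 and rho -0.16, so that relation was weaker by rank. The part of both kinds of cell in the slopes was not tested. Of the 4 class IIa deacetylases, 2 rose and 2 fell. HDAC9 rose by 0.38 ± 0.08 (SE) per SD (limma, adjusted p = 1.19e-05) and HDAC5 by 0.30 ± 0.03 (SE) (adjusted p = 1.81e-14), and both were called in all 12 alternatives, with HDAC9 from 0.20 to 0.58 and HDAC5 from 0.22 to 0.32. HDAC4 had a slope of -0.15 ± 0.05 (SE) (adjusted p = 0.0135) and HDAC7 of -0.13 ± 0.04 (SE) (adjusted p = 0.00379), each lost as a call in 3 of the 12 alternatives. HDAC4 had r of -0.20 and rho of -0.11 (permutation test, adjusted p = 0.0194 and 0.246) with the osteoblast score, and HDAC7 had r of -0.24 and rho of -0.13 (permutation test, adjusted p = 0.00549 and 0.143), so neither fall passed the test by rank. For HDAC4 and HDAC7, r was -0.25 and -0.31 within COTC021, -0.17 and -0.16 within COTC022, -0.19 and -0.47 within the deeper libraries, -0.22 and -0.16 within the others and -0.21 and -0.22 without the 2 farthest dogs. HDAC4 had lowest, median and highest levels of 5.04, 12.6 and 43.1 CPM in COTC021 and 3.78, 13.5 and 53.4 CPM in COTC022, and those of HDAC7 were 19.9, 49.1 and 122 CPM in COTC021 and 20.4, 47.1 and 163 CPM in COTC022. For HDAC5 Pearson's r with the osteoblast score was 0.55 and rho 0.51 (permutation test, adjusted p = 8.8e-05 for both), with r of 0.59 and 0.53 within COTC021 and COTC022, 0.57 and 0.54 within the deeper and the other libraries and 0.54 without the 2 dogs farthest from the median score. For HDAC9 r was 0.35 (adjusted p = 8.8e-05), rho was 0.21 (adjusted p = 0.0146), and r was 0.36 and 0.37 within the trials, 0.52 and 0.32 within the deeper and the other libraries and 0.33 without the 2 dogs.

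The other named members had smaller slopes on the osteoblast score than HDAC9 and HDAC5. KDM8 (0.15, limma, adjusted p = 0.0095), the H3K9 methyltransferases EHMT2 (0.13, adjusted p = 8.24e-05) and SUV39H2 (0.12, adjusted p = 0.00794) and the tubulin deacetylase HDAC6 (0.12, adjusted p = 0.00511) rose. KMT2E (-0.16, adjusted p = 0.000262), KDM1B (-0.12, adjusted p = 0.0102), HDAC1 (-0.11, adjusted p = 0.00733) and SMYD3 (-0.11, adjusted p = 0.0118) fell. Each of these 8 calls was lost in at least 1 and at most 5 of the 12 alternatives. The slopes of EZH1 (-0.01, adjusted p = 0.917), EZH2 (0.03, adjusted p = 0.656), HDAC2 (0.03, adjusted p = 0.419) and HDAC3 (-0.00, adjusted p = 0.991) were close to 0.

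Skeletal muscle transcripts were spread very unevenly over the tumors, with a summed level of 16 muscle genes from 5.23 to 33164 CPM in COTC021 and from 5.92 to 101440 CPM in COTC022, and 14 of the 16 were listed at 0 in at least 1 library. SMYD1, a methyltransferase of heart and skeletal muscle, followed them. It had 0 counts in 92 of 186 libraries, at least 10 counts in 19, a median of 0.0466 CPM and a highest level of 22.3 CPM in COTC021 and 50.4 CPM in COTC022. Its r with the score of 15 muscle genes was 0.85 and its rho 0.62 on log2(CPM + 2) (permutation test, adjusted p = 8.8e-05 for both), with r of 0.82 and 0.89 within COTC021 and COTC022, 0.91 and 0.83 within the deeper and the other libraries and 0.82 without the 2 dogs farthest from the median score. Among the 64 members tested, 2 were called on this score, against 8.64% of all genes (6.42% rising and 2.22% falling). HDAC4 rose by 0.25 ± 0.04 (SE) per SD (limma, adjusted p = 3.08e-06), and EHMT2 had a slope of -0.10 ± 0.03 (SE) (adjusted p = 0.0218). The muscle score had r of 0.28 and 0.26 (rho of 0.18 and 0.31) with adipocyte and endothelial markers, whose part was not tested. EZH1, EZH2, HDAC1, HDAC2 and HDAC3 had slopes of 0.08, -0.07, -0.03, -0.01 and -0.06 and were not called. The call of HDAC4 was lost within COTC021 and that of EHMT2 in 5 of the 12 alternatives. For HDAC4 r was 0.34 (adjusted p = 8.8e-05) and rho 0.12 (adjusted p = 0.183), so the relation did not pass the test by rank, with r of 0.27 and 0.39 within the trials, 0.44 and 0.30 within the deeper and the other libraries and 0.27 without the 2 farthest dogs. PRMT8, an arginine methyltransferase of the nervous system and the other member below the filter, had 0 counts in 62 libraries, at least 10 in 39, a median of 0.189 CPM and a highest level of 8.99 CPM, and its r with the muscle score was -0.03 (adjusted p = 0.819).

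**Figure D3:**
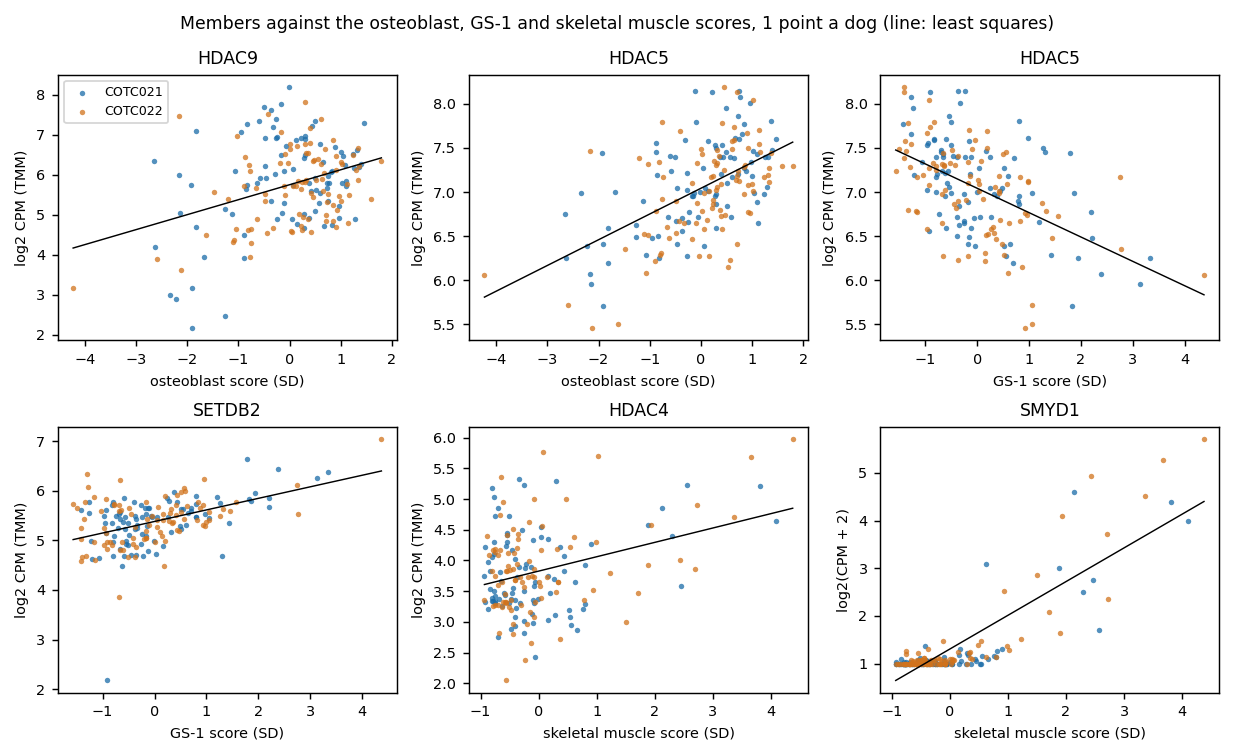
Members against 3 further scores in SD, with 1 point for each of 186 dogs, coloured by trial, and a least-squares line; values are TMM-normalized log2 CPM, for SMYD1 log2(CPM + 2). HDAC9 (r = 0.35) and HDAC5 (r = 0.55) climb with the osteoblast score, HDAC5 (r = -0.52) descends with the GS-1 score, and SMYD1 lies flat in most dogs and climbs in those with a high muscle score; SETDB2 and HDAC4 rise more gently.

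**Figure D4:**
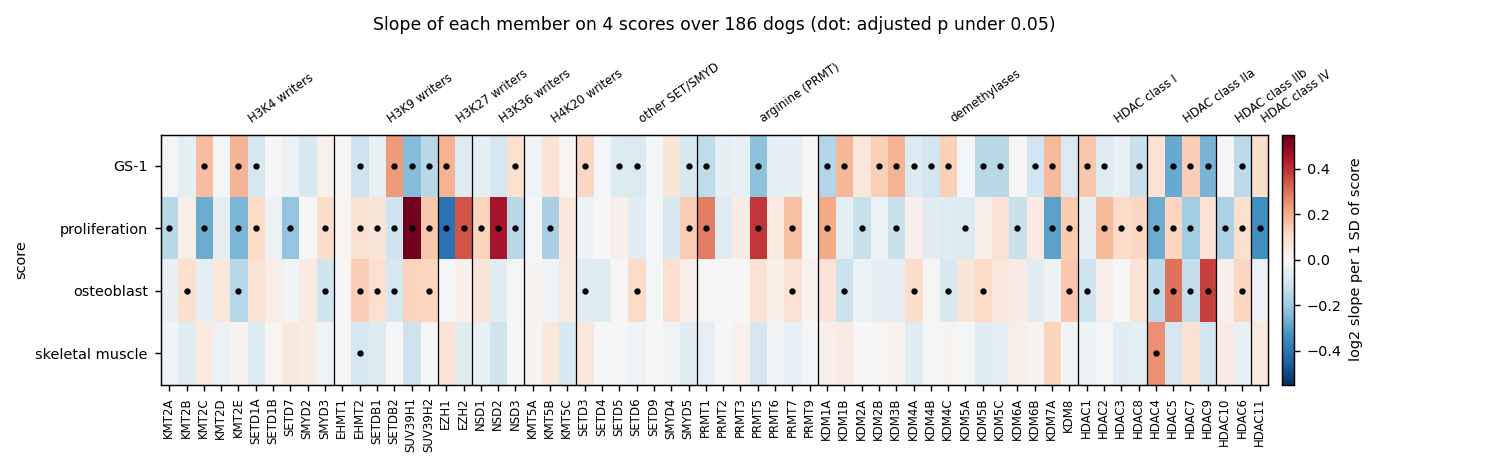
Slope of each of the 64 members kept (columns, grouped by role) on the 4 scores (rows), in log2 units per 1 SD of score, with a dot where the adjusted p was under 0.05. The deepest colours lie in the proliferation row, for SUV39H1 (0.53), NSD2 (0.45) and EZH1 (-0.41), and the muscle row holds 2 dots.

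No member passed a test of the difference in slope between the trials or between the kinds of library. The term of score by trial, and that of score by library name, gave 0 members with an adjusted p under 0.05 in limma for each of the 4 scores. At an unadjusted p under 0.05 there were 0, 4, 2 and 1 members for the term with the trial on the GS-1, proliferation, osteoblast and muscle scores, and 4, 5, 4 and 0 for that with the library name. Over all 13422 genes these numbers were 374, 1318, 492 and 490 for the trial and 960, 1783, 1881 and 341 for the library name, with 0, 5, 0 and 0 and then 0, 1, 124 and 0 genes past the adjusted threshold. The 4 slopes of a gene come from the same dogs and are not independent of one another.

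Members were next compared with one another over the 186 dogs. Of the 2016 pairs of kept members, 29 (1.44%) had a Pearson's r of at least 0.5, against 0.404% of all 90068331 pairs of genes, and 3 (0.149%) had an r of at most -0.5, against 0.0525%. Every pair named here had a permutation p of 1e-05, the smallest possible, for r and for rho (9.69e-05 and 0.000102 adjusted over the 2016 pairs), unless another is given. Of the 29 pairs, 15 held KMT2A, KMT2C, KMT2D or their relative KMT2E, with 7 pairs for KMT2C, 6 for KMT2D, 4 for KMT2E and 3 for KMT2A. KMT2B was in 2 pairs, and EZH1, KDM3B, NSD2, PRMT5 and SUV39H1 were in 3 each. No test was made of the number of pairs that a gene was in.

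The strongest pair was KMT2C with the H3K36 methyltransferase NSD3, at r = 0.74 and rho = 0.74. KMT2A, the MLL protein, and KMT2D followed at r = 0.65 (rho = 0.58), then the H3K36 demethylase KDM2A and the H4K20 methyltransferase KMT5B at 0.64 (rho = 0.72). KDM7A was paired with KMT2C (0.63, rho = 0.58) and with NSD3 (0.63, rho = 0.63). KMT2C was further paired with KMT2D (0.63, rho = 0.55), KMT2E (0.62, rho = 0.56) and KMT2A (0.61, rho = 0.56). The last of the 10 highest were KDM2B with SETD1B (0.60, rho = 0.52) and PRMT1 with PRMT5 (0.59, rho = 0.58). Within COTC021 and COTC022 these 10 pairs had r between 0.36 and 0.69 and between 0.54 and 0.78, within the deeper and the other libraries between 0.51 and 0.72 and between 0.60 and 0.75, and without the 2 dogs farthest from the median of the first gene between 0.58 and 0.74.

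The lowest r belonged to EZH1 with PRMT1, at -0.59 (rho = -0.59), and PRMT1 also ran against KMT2E (-0.58, rho = -0.60), KMT2C (-0.52, rho = -0.52) and KDM7A (-0.44, rho = -0.43). EZH1 with PRMT5 stood at -0.48 (rho = -0.49). Within the trials these 5 pairs lay between -0.59 and -0.37 in COTC021 and between -0.67 and -0.48 in COTC022, within the deeper and the other libraries between -0.71 and -0.46 and between -0.56 and -0.42, and between -0.59 and -0.43 without the 2 farthest dogs. After the trial, the library name, the library total and the 4 scores were taken out, 19 of the 29 positive pairs stayed at 0.5 or above and 0 of the 3 negative pairs at -0.5 or below, with EZH1 and PRMT1 at -0.32 and KMT2C and NSD3 at 0.70. On log2(CPM + 2) with no further normalization there were 83 positive pairs and 0 negative ones.

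Closest relatives mostly had a low r. Over 30 pairs of closest relatives, chosen after the other results had been seen, the median r was 0.12, 1 pair reached 0.5 (KMT2C with KMT2D) and 8 were below 0. The median over all 2016 pairs of members was lower, at 0.03. In either direction, 17 of the 30 pairs had an adjusted p of r under 0.05 (permutation test), against 699 of the 2016. Pairs of the same role had a median r of 0.07 (227 pairs, 4.41% at 0.5 or above) and pairs of different roles one of 0.03 (1789 pairs, 1.06%). EZH1 and EZH2 had r = -0.24 and rho = -0.23 (permutation test, adjusted p = 0.00331 and 0.0069), with -0.24 and -0.25 within the trials, -0.27 and -0.28 within the deeper and the other libraries, -0.23 without the 2 farthest dogs and 0.09 once the scores and the other terms were taken out. HDAC1 and HDAC2, which share complexes, had r = 0.07 (rho = 0.08, adjusted p = 0.497 and 0.425).

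The 4 class IIa deacetylases were also compared with one another. HDAC4 and HDAC7 went together at r = 0.33 (rho = 0.27, permutation test, adjusted p = 9.69e-05 and 0.00116) and HDAC5 and HDAC9 at 0.23 (rho = 0.13, adjusted p = 0.0076 and 0.163). The 4 pairs across were all negative, HDAC4 with HDAC9 at -0.41 (rho = -0.37), HDAC7 with HDAC9 at -0.35 (rho = -0.26), HDAC4 with HDAC5 at -0.32 (rho = -0.23) and HDAC5 with HDAC7 at -0.25 (rho = -0.19), with adjusted p of at most 0.00343 for r and 0.0344 for rho. Within COTC021 the 4 lay between -0.42 and -0.29, within COTC022 between -0.42 and -0.20, within the deeper libraries between -0.43 and -0.33, within the others between -0.40 and -0.20 and without the 2 farthest dogs between -0.40 and -0.21. With the 4 scores and the other terms taken out, HDAC4 with HDAC9 stood at -0.37, HDAC5 with HDAC7 at -0.06 and HDAC5 with HDAC9 at -0.01.

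Pairs on the same chromosome reached a high r more often than pairs on different ones, for members and for all genes. Of the 67 pairs of members on the same chromosome, 10 (14.9%) had r of at least 0.5, with a median of 0.22, and of the 1949 pairs on different chromosomes 19 (0.975%), with a median of 0.03. Over all genes with 1 RefSeq locus, the shares were 1.71% and 0.361%, with medians of 0.08 and -0.01. KDM7A, KMT2C and NSD3, the trio of high pairs named above, all lie on chromosome 16, where KDM7A starts at 8524015, KMT2C at 16694819 and NSD3 at 27839601. EZH2 starts at 1581164 of the same chromosome and had r of 0.18 with NSD3 (rho = 0.16, permutation test, adjusted p = 0.0421 and 0.0628), 0.00 with KMT2C (rho = 0.00, adjusted p = 0.999 and 0.996) and -0.01 with KDM7A (rho = 0.00, adjusted p = 0.939 and 0.993). KDM2A and KMT5B start 0.544 Mb apart on chromosome 18, KDM2B and SETD1B 0.175 Mb apart on chromosome 26, and HDAC6 and SUV39H1 0.111 Mb apart on chromosome X (r = 0.58, rho = 0.52). EZH1 and HDAC5 start 0.999 Mb apart on chromosome 9 and had r = -0.01 (rho = -0.00, adjusted p = 0.929 and 0.981), and HDAC1 and KDM1A, 7.41 Mb apart on chromosome 2, had the lowest r of a pair on the same chromosome, -0.22 (rho = -0.17, adjusted p = 0.011 and 0.0552). After the scores and the other terms were taken out, r was 0.24 for EZH1 with HDAC5 and -0.12 for HDAC1 with KDM1A. Among the 16 pairs within 5 Mb the median was 0.25, with 5 at 0.5 or above.

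**Figure D5:**
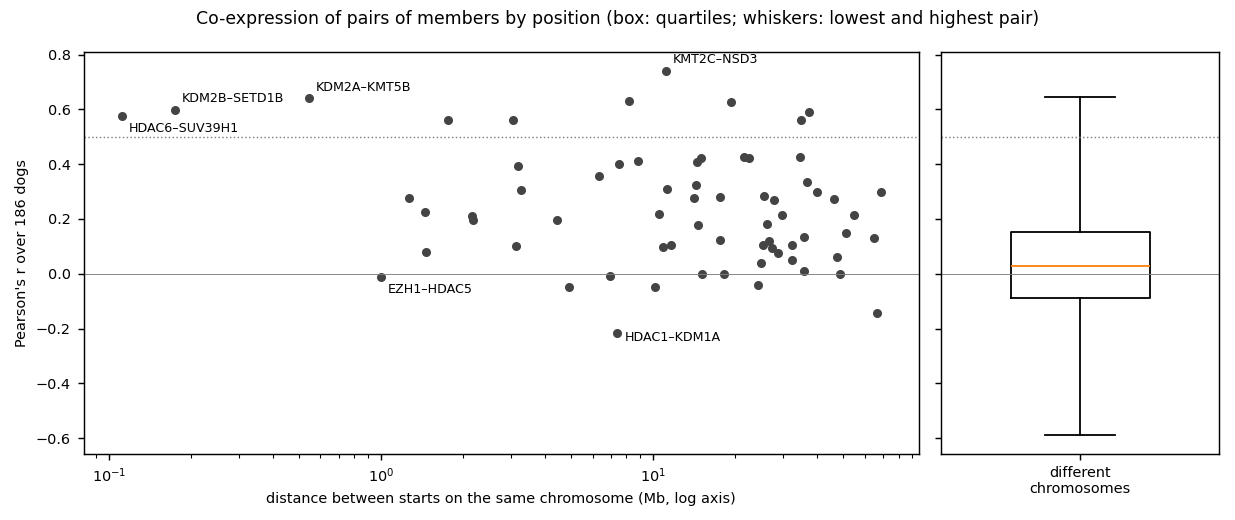
Pearson's r over 186 dogs for the 67 pairs of members on the same chromosome against the distance of their starts in Mb on a log axis (left), and for the 1949 pairs on different chromosomes as a box of quartiles with whiskers to the lowest and highest pair (right). The 3 closest pairs, HDAC6 with SUV39H1, KDM2B with SETD1B and KDM2A with KMT5B, lie above the dotted line at 0.5, and the box sits around a median of 0.03.

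The same was asked of all genes around each member. For 63 of 64 members, the median r with the genes that start within 1 Mb was higher than that with genes of other chromosomes, which held for 94.5% of all genes as well, and the median of these medians was 0.23 for members and 0.19 for all genes. NSD3 had the highest value, with a median r of 0.58 over 19 neighbours, 13 of them at 0.5 or above, followed by SETDB2 (0.46, 14 neighbours), KDM5C, an X-linked H3K4 demethylase (0.46, 14), HDAC10 (0.45, 24), HDAC6 (0.45, 38) and KMT5A (0.41, 34). A median of at least 0.4 was found for 6 members and for 5.87% of all genes with neighbours. EZH1 (0.06 over 62 neighbours), SETD7 (0.07 over 13) and KDM5B (0.08 over 22) stood at the other end, beside PRMT6 with its single neighbour at -0.11.

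Enzymes and subunits that work with the members, from lists written with earlier results of these data known, were counted in the same fits, where 24.6% of all genes rose and 30.3% fell with the proliferation score, 22.3% and 26.2% with the GS-1 score and 18.1% and 19.3% with the osteoblast score. No test was made of these small lists. Of 9 subunits of PRC2 tested, 3 rose and 1 fell with the proliferation score, MTF2 (0.23, limma, adjusted p = 1.68e-08) and the core subunit SUZ12 (0.23, adjusted p = 2.76e-08) rising and PHF1 (-0.18, adjusted p = 4.83e-06) falling. On the GS-1 score EED rose (0.28, adjusted p = 2.74e-06) and PHF19 with it (0.18, adjusted p = 1.34e-05), as 2 of 3 that rose and 0 that fell. Of 9 partners of the KMT2 and SETD1 enzymes, 3 rose with proliferation, led by DPY30 (0.20, adjusted p = 2.8e-08) and WDR5 (0.18, adjusted p = 1.18e-06), and 3 fell with the GS-1 score, led by WDR5 (-0.19, adjusted p = 6.2e-07). Of 18 partners of HDAC complexes, 8 rose and 2 fell with proliferation, and 3 rose and 7 fell with the GS-1 score, where the NuRD subunits MTA3 (-0.30, adjusted p = 8.44e-12) and MTA1 (-0.23, adjusted p = 2.05e-06) fell most. On the osteoblast score 1 PRC2 subunit rose and 4 fell, 2 KMT2 partners rose, and 3 HDAC partners rose and 5 fell. Their median slopes on the proliferation score were 0.03 for each of the 3 lists, against -0.02 over all genes, and 0 of their genes passed the test between the trials.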

How the data were processed

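RNA of primary tumors was made into stranded mRNA libraries, 1 per dog. Per the methods and the submitters' processing notes, the authors demultiplexed the reads with bcl2fastq, trimmed them with Cutadapt, mapped them to UU_Cfam_GSD_1.0 with STAR 2.7.0f and quantified genes with RSEM 1.3.1. The deposited values are expected counts per gene, not normalized. They were rounded, since 3.07% were not whole numbers. Of 198 columns, 186 carry the name of a listed sample, and the other 12 were not used. CPM are counts divided by the library total. Depth limits the precision of low members, and errors given are standard errors over dogs.

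Low genes were removed by the filterByExpr function of edgeR 4.0.16, with large.n set to 5, min.count to 10 and min.prop to 0.5. Library sizes were then scaled by TMM, and voom weights and linear models came from limma 3.58.1 (R 4.3.3), with Benjamini-Hochberg adjustment over all 13422 genes kept and a threshold of 0.05. The trial was tested alone, and each score with the trial as covariate. A score is the mean z-score of quantile-normalized log2(CPM + 2) over the genes of a list that were kept. Alternatives were edgeR's quasi-likelihood fit, DESeq2 1.42.0, other size factors, no low-count filter, the library name as covariate, fits within each trial or kind of library, another score scale, all scores together, and without the 2 dogs farthest from the median score. Co-expression used TMM-normalized log2 CPM (prior count 2) and 100000 permutations of the dogs in Python 3.11.15 with numpy 2.4.6, scipy 1.17.1 and pandas 2.3.3, and figures matplotlib 3.10.9. The fits were tested on simulated data.

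The members and all gene lists were chosen with earlier results of these data known. The named members of a comparison are the 6 with the largest slope in each direction among those called, the 5 highest and 5 lowest by level, the 5 most and least variable, and the 10 highest and 5 lowest pairs, with up to 3 genes of each partner list, and EZH1, EZH2 and HDAC1 to HDAC3 are described throughout. The terms of score by library name, the split of pairs by position, the pairs of closest relatives and the tumors far from a median were added after seeing the data. Positions are those of RefSeq for UU_Cfam_GSD_1.0, in which all 66 members were found by symbol. Dogs' clusters and survival were not used here, and no sequences were analysed here.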

Additional observations from a re-analysis of the deposited data

How the results depend on the processing

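Of 456 values of named members under the alternatives, 404 kept their direction and their call, 52 kept the direction without passing the threshold and 0 reversed. The named members had been picked for passing the threshold in the main fit, and every alternative drew on the same dogs or a part of them. These counts are therefore no independent check of the slopes. For the GS-1 score, 33 members became 16 within the 50 deeper libraries, 19 within COTC021 and 17 with all 4 scores in 1 model. For the proliferation score, 37 became 23 within the deeper libraries. For the osteoblast score, 21 became 7 within the deeper libraries, 9 within COTC021 and 8 within COTC022. For the muscle score, 2 became 1 within the deeper and 1 within the other libraries, 0 within COTC021, 1 with all 4 scores in 1 model and 4 with the score from TMM-normalized log2 CPM, for which the cause was not tested. The 29 pairs with r of at least 0.5 became 83 on log2(CPM + 2) with no further normalization, where the median r of all pairs of members was 0.13 in place of 0.03, 50 within COTC022 and 57 within the deeper libraries, of which 29, 26 and 25 were among the 29. Within COTC021 there were 27 such pairs, and only 18 of them were among the 29. Of the 3 negative pairs, 2 stayed at -0.5 or below there. Over all genes, the osteoblast score called 13527 genes without the low-count filter in place of 5019, and members 23 in place of 21, and the muscle score 1803 in place of 1160. Without the filter every gene with any count was tested, against 13422 genes in the main fit, so these counts of genes do not share a total. Within a trial or a kind of library, genes called fell from 6507 to between 3284 and 4632 for the GS-1 score, from 7378 to between 3211 and 6310 for proliferation, from 5019 to between 2361 and 3683 for the osteoblast score and from 1160 to between 178 and 919 for the muscle score, and all 4 scores in 1 model gave 4308 for GS-1 and 668 for muscle. edgeR's quasi-likelihood fit, DESeq2, other size factors, no filter and the library name as covariate kept each other count of called members within 1.5 times, and the trial called 0 members in each of its 7 alternatives, of genes 0 to 129. No paired analysis was possible because each dog gave 1 tumor and replicate numbers follow the order of the samples. A replicate was not left out in turn, since each trial holds 93 dogs. Read counts set little limit for the 64 members kept, but KDM8, KMT5C, SETD9, SETD4 and HDAC11 rest on few reads, and 15 members overlap another coding gene, among them HDAC3, KDM2A, KDM2B, KDM3B, KMT2E, NSD1, NSD3, SETDB2 and SUV39H2, whose reads RSEM divides by an estimate.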

Other observations

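The acetyltransferases, which oppose the deacetylases, held the steepest proliferation slope of the 6 partner lists. Of 12 tested, 3 rose and 4 fell with the proliferation score, with KAT2B (PCAF) at -0.42 (limma, adjusted p = 6.34e-18) and the histone deposition enzyme HAT1 at 0.34 (adjusted p = 5.34e-16). KAT2B also rose with the skeletal muscle score (0.19, adjusted p = 0.00364) and with the GS-1 score (0.25, adjusted p = 3.06e-06), on which 2 of the 12 rose and 4 fell, and it fell with the osteoblast score (-0.16, adjusted p = 0.00838), on which 2 rose and 1 fell. The slopes of the 7 sirtuins, deacetylases that use NAD, were shallower, from -0.09 to 0.16 on the GS-1 score, where SIRT7 rose most (0.16, adjusted p = 8.86e-06), and from -0.08 to 0.08 on the proliferation score. On the osteoblast score 2 of the 7 rose and 1 fell, led by SIRT4 (0.15, adjusted p = 0.000606). A list of 12 genes outside the name pattern was grouped as methylation enzymes, without a check of the activity of each. Of these, 3 rose and 4 fell with proliferation, led by JMJD6 (0.29, limma, adjusted p = 1.39e-14). With the GS-1 score 4 fell, led by CARM1 (-0.21, adjusted p = 1.23e-05), and with the osteoblast score 1 rose, PHF8 (0.13, adjusted p = 0.00812). Of all genes, 24.6% rose and 30.3% fell with proliferation, 22.3% and 26.2% with GS-1, 18.1% and 19.3% with the osteoblast score and 6.42% and 2.22% with the muscle score, and no test was made of these lists.

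Single tumors stood far from the rest for some members. A library more than 2 log2 units below the median was found for 10 of 64 members and one above it for 11, against 6151 and 6161 of 13422 genes. KDM6A was lowest in a COTC021 tumor at 0.751 CPM (7 counts), 4.98 log2 units below the median of 28.2 CPM, with the next library 2.07 below. In that tumor 4 of its 5 neighbours within 1 Mb lay at least 1 log2 unit below their own medians, and their median was 3.39 below, while 15.4% of all genes lay as low in that tumor. SETDB2 was lowest in a COTC021 tumor at 3.77 CPM (36 counts), 3.27 below its median, together with 13 of 14 neighbours at least 1 log2 unit below theirs (20.9% of all genes). NSD3 was highest in a COTC022 tumor at 315 CPM, 2.42 above its median, where all 19 neighbours lay at least 1 log2 unit above theirs (10.4% of all genes). KMT5B was highest in a COTC021 tumor at 168 CPM, with 24 of 39 neighbours as far above (7.99% of all genes). SUV39H1 was highest in a COTC022 tumor at 82.2 CPM, with 29 of 37 (8.65%). KDM6A was highest in a COTC022 tumor at 133 CPM, with 4 of 5 (6.55%). The extremes of HDAC9 (3.94 CPM, 3.63 below the median) and of PRMT5 (309 CPM, 2.02 above) were not shared in this way. There 0 of 3 and 4 of 48 neighbours lay as far off (10.6% and 10.1% of all genes). For the lowest libraries of EZH2, PRMT6 and KMT2D the counts were 0 of 4, 0 of 1 and 2 of 38. For the lowest and highest of HDAC11 they were 0 of 18 and 2 of 18. The highest of HDAC9 and HDAC4 had 0 of 3 and 2 of 10. The lowest of KDM6B, KMT2A and SETD4 had 13 of 72, 9 of 36 and 6 of 10. The highest of KDM1A, KDM7A and NSD2 had 14 of 29, 6 of 17 and 10 of 27. These tumors were picked for their values, so the counts are descriptions without a test.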
